A study of Mus musculus with 4 samples.

Results

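Occupancy of the transcriptional coactivator Eya1 at the 9 Chd genes (Chd1 to Chd9) was examined in the developing mouse kidney. The members were taken by name, with earlier results of these data known, and they are 9 of the 21951 protein-coding genes of GENCODE release M21 on mm10. The series held 4 samples of E13.5 kidneys (E, embryonic day), which comprised 2 Eya1 ChIP-seq replicates, 1 input control and 1 IgG control. The mice carried a knockin Eya1 allele encoding HA and FLAG tags, and tagged Eya1 was recovered with anti-FLAG beads from 80 pooled kidneys per assay. Whole kidneys hold several cell types, and the cells that contributed a peak cannot be told apart. The replicate 1 list had a median peak width of 1069 bp, with 4041 peaks near a start site of some gene, and the replicate 2 list had a median of 188 bp, with 3545 such peaks. The lists give positions without read counts, so the depth behind a peak is unknown and a missing peak does not show that Eya1 was absent. Neither control was analysed here, and with 2 lists each value is given for both replicates without a test.

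Chd proteins are chromodomain helicase DNA-binding ATPases of the Snf2 family, which use ATP to slide, space, evict or exchange nucleosomes. Chd1 and Chd2 carry a DNA-binding domain and work on transcribed chromatin. Chd3, Chd4 and Chd5 are the alternative ATPases of the nucleosome remodelling and deacetylase complex NuRD, which joins remodelling to histone deacetylation. Chd6 to Chd9 share BRK domains, and they include Chd7, the gene mutated in CHARGE syndrome, in which kidney anomalies can occur. Eya1 is a phosphatase and coactivator without a DNA-binding domain of its own that acts with Six2 in nephron progenitors, and human EYA1 is mutated in branchio-oto-renal syndrome.

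Eya1 peaks lay at the promoters of 6 of the 9 Chd genes, and 4 of these had a peak in both replicates. A gene was counted when a peak came within 1 kb of any annotated transcription start site (TSS) of that gene. Chd1, Chd3, Chd4 and Chd6 were occupied in both lists, Chd7 and Chd8 were occupied in replicate 1 alone, and Chd2, Chd5 and Chd9 were occupied in neither. In replicate 1 the count was 6 of 9 genes (66.7%), beside 20.2% of all protein-coding genes. In replicate 2 it was 4 of 9 (44.4%), beside 14.7%. Peaks in both lists were found at 4 of 9 Chd genes (44.4%) and at 11.5% of protein-coding genes, and peaks in either list at 6 of 9 (66.7%) and at 23.5%. A promoter peak in replicate 1 only was found at 2 of 9 (22.2%), beside 8.76%, and a promoter peak in replicate 2 only at 0 of 9, beside 3.25%. These shares are over all genes, most of which had no peak. Among genes with a replicate 1 promoter peak, it was in replicate 1 only at 2 of 6 Chd genes and 1924 of 4444 protein-coding genes. Among genes with a replicate 2 promoter peak, it was in replicate 2 only at 0 of 4 and 714 of 3234.

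No Chd gene had a peak in its body away from its promoters. A gene-body peak was a peak that overlapped the gene but lay more than 1 kb from each of its start sites. The count was 0 of 9 in replicate 1, where 1.07% of protein-coding genes had one, 0 of 9 in replicate 2, beside 1.58%, and 0 of 9 in either list, beside 1.97%. Chd genes are long, from 26.1 kb for Chd3 to 226 kb for Chd9, and 7 of the 9 span 50 kb or more. Among protein-coding genes of that length 4.95% had a gene-body peak in either list, beside 0 of these 7 Chd genes. At such low shares a count of 0 among so few genes is near the background.

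**Figure D1:**
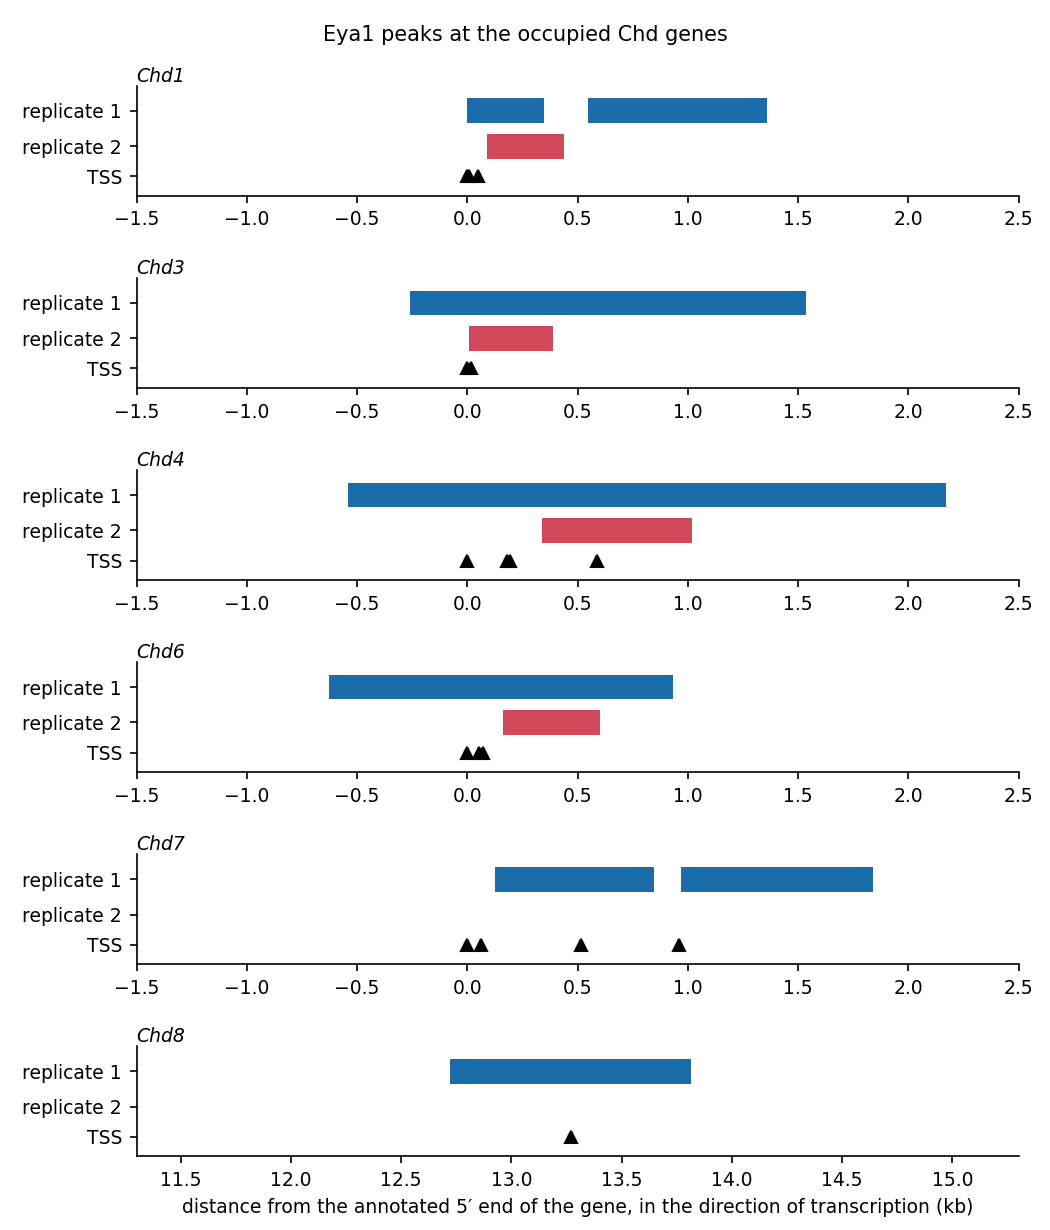
Peaks of replicate 1 (blue) and replicate 2 (red) at the 6 occupied Chd genes, drawn to scale against the distance from the annotated 5′ end of each gene in kb, with annotated TSS positions as triangles. Replicate 2 peaks of Chd3, Chd4 and Chd6 lie inside the replicate 1 peak, that of Chd1 is shifted downstream of it, and the Chd8 peak lies around 13.3 kb into the gene.

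Of the subfamily of Chd1 and Chd2, Chd1 was occupied in both lists and Chd2 in neither. Chd1 (ENSMUSG00000023852.14, chr17:15704967-15772610, plus strand) encodes a remodeller whose chromodomains bind methylated lysine 4 of histone H3 and which keeps chromatin open in pluripotent cells. Replicate 1 had a peak of 351 bp at chr17:15704966-15705316 that held the start sites of Chd1-201, Chd1-203 and Chd1-204. A second replicate 1 peak, of 812 bp, lay at chr17:15705514-15706325, wholly in an intron and 496 bp from the nearest start site. Replicate 2 had a single peak of 352 bp at chr17:15705055-15705406, 37 bp downstream of the Chd1-203 start. The replicate 1 and replicate 2 peaks at the start of Chd1 were thus almost equally wide and shared 262 bp. Exons of the gene, none of it coding sequence, made up 346 bp of that replicate 1 peak and 258 bp of the replicate 2 peak.

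The pair at Chd1 was unusual among the peak pairs of the lists. Its replicate 1 to replicate 2 width ratio was 0.997, at the 0.342 percentile of 2779 overlapping pairs of promoter-proximal peaks, whose median ratio was 5.46 (quartiles 3.34 and 8.65). Replicate 1 listed separate peaks there, with a gap of 197 bp and a joint span of 1360 bp. Separate peaks were also listed at Chd7, and 2 of 9 Chd genes (22.2%) had 2 or more promoter peaks in replicate 1, beside 0.806% of protein-coding genes. Most protein-coding genes had no promoter peak in replicate 1. Among genes with at least 1, the counts were 2 of 6 Chd genes and 177 of 4444 protein-coding genes. How peaks were split or joined by the caller was not tested.

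Chd2 (ENSMUSG00000078671.11, chr7:73426638-73541830, minus strand) encodes the remodeller mutated in a childhood epileptic encephalopathy. It has 17 annotated TSS positions, and 0 of them lay within 1 kb of a peak in either list. The peaks nearest to its 5′ end lay 14.7 kb away in replicate 1 and 15.9 kb away in replicate 2. Both sat at the start of 1810026B05Rik, a long noncoding RNA gene also called Chaserr, which is transcribed from the same strand toward Chd2, overlaps its 5′ end and is known to lower Chd2 expression. The peak there was 2574 bp wide in replicate 1 (chr7:73556527-73559100) and 399 bp wide in replicate 2 (chr7:73557766-73558164). Start sites of the 2 genes are 16.6 kb apart. This neighbour, like Rpl22, Supt16 and Rbl2 below, was chosen after its values were seen.

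The NuRD ATPases were occupied at Chd3 and Chd4 in both lists and not at Chd5. Chd3 (ENSMUSG00000018474.17, chr11:69343273-69369406, minus strand) had a replicate 1 peak of 1794 bp at chr11:69367871-69369664 that held the start sites of Chd3-201 and Chd3-202. Its replicate 2 peak of 382 bp at chr11:69369016-69369397 lay wholly inside the replicate 1 peak and held the start of Chd3-201. That peak ran from 9 to 390 bp downstream of the 5′ end, and 256 bp of it were coding sequence. The other 7 annotated start sites of Chd3, from 4.63 to 23.4 kb into the gene, had no peak within 1 kb in either list.

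Chd4 (ENSMUSG00000063870.12, chr6:125095981-125130591, plus strand), the main NuRD ATPase of many tissues, had the widest Chd peak in each list. The replicate 1 peak covered 2715 bp at chr6:125095439-125098153, from 542 bp upstream to 2172 bp downstream of the 5′ end, and held 4 TSS positions. Its width stood at the 97.8 percentile of promoter-proximal peaks in replicate 1. The replicate 2 peak covered 677 bp at chr6:125096322-125096998, at the 96.9 percentile of promoter-proximal peaks in replicate 2. It began 341 bp downstream of the 5′ end and held only the start of Chd4-207, an alternative protein-coding transcript that begins 588 bp into the gene. Mir7045, a microRNA gene at chr6:125097024-125097086, lay within 1 kb of both peaks. Below are the 200 bases of Chd4 intron directly upstream of the Chd4-207 start, on the plus strand of mm10, because peaks of both lists cover them. The sequence is 77% G and C with 18 CpGs, and capitals here and in the sequences that follow mark exact matches, on either strand, to the motifs spelled out further on.
Chd4 chr6:125096369-125096568: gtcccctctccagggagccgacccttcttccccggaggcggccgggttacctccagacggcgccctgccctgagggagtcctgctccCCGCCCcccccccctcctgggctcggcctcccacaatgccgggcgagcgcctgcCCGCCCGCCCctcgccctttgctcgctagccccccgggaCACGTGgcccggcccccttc
The 4 matches in it are GC boxes, the element bound by Sp1 and related factors, and an E box, the element bound by Myc and related factors, which lies near the Chd4-207 start.

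Chd5 (ENSMUSG00000005045.16, chr4:152338651-152390194, plus strand), a NuRD ATPase known mainly from neurons and testis, had 0 of its 4 TSS positions near a peak. The nearest peaks lay 11.9 kb away in replicate 1 and 12.3 kb away in replicate 2, at Rpl22, the upstream gene for a ribosomal protein. Those peaks were 1334 bp wide at chr4:152325427-152326760 and 146 bp wide at chr4:152326183-152326328. The Chd5 5′ end had 70.8% GC and an observed over expected CpG ratio of 0.84 in 1 kb, higher on both measures than those of Chd3, Chd4 and Chd6 and lower than those of Chd1 and Chd7. The 200 bases upstream of its 5′ end, from the RefSeq promoter table on GRCm38.p6, are shown for contrast as a promoter with GC boxes and no listed peak.
Chd5 chr4:152338451-152338650: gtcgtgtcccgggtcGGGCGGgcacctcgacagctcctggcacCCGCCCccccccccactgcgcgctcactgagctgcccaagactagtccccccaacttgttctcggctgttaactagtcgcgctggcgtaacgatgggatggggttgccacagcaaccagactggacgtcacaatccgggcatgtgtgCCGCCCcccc
These bases are 67% G and C with 16 CpGs and hold 3 GC box matches. The promoter table held 5 of the 9 members (Chd4, Chd5, Chd6, Chd8 and Chd9).

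Of the subfamily of Chd6 to Chd9, Chd6 was occupied in both lists, Chd7 and Chd8 in replicate 1, and Chd9 in neither. Chd6 (ENSMUSG00000057133.14, chr2:160946978-161109075, minus strand) encodes a remodeller linked to the oxidative stress response. Its replicate 1 peak of 1559 bp at chr2:161108145-161109703 ran from 628 bp upstream to 930 bp downstream of the 5′ end and held 3 TSS positions. The replicate 2 peak of 438 bp at chr2:161108475-161108912 lay inside it, wholly in the intron that follows these start sites and 92 bp from the nearest of them. Gm45447, an antisense noncoding RNA gene that runs the opposite way and starts 336 bp upstream of Chd6, lay within 1 kb of both peaks, and the annotated starts of the pair face away from each other. The other 7 Chd6 start sites, 56.5 to 148 kb into the gene, had no peak within 1 kb.

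A stretch of the Chd6 peak on either side of the start sites is shown on the minus strand of mm10, because the replicate 2 peak covers only the downstream one. The intronic stretch lies in peaks of both lists, and the upstream stretch between Chd6 and Gm45447 lies in the replicate 1 peak only.
Chd6 intron chr2:161108593-161108792: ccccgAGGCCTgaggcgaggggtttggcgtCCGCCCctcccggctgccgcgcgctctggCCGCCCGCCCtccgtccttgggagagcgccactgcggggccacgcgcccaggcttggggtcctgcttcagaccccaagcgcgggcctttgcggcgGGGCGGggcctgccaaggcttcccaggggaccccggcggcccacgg
Chd6 upstream chr2:161109076-161109275: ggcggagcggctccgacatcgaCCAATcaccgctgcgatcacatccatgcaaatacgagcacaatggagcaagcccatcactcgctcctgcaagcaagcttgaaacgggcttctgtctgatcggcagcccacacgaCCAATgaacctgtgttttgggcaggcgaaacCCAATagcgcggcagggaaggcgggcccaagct
The intronic stretch is 78.5% G and C with 23 CpGs and 5 matches, to the GC box and to part of the ZFX motif. The upstream stretch is 59% G and C with 15 CpGs and 3 matches to CCAAT, the element bound by NFY, and none to the GC box. The intronic stretch also holds a match to RE1, the element bound by the repressor REST.
Chd6 RE1 match chr2:161108652-161108668: TTCAGAcCCCAAGCGcG
Capitals in this line mark the letters that match RE1, and 2 of the 17 letters do not. A match of this kind is a feature of the sequence and not a measurement of REST.

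Chd7 (ENSMUSG00000041235.12, chr4:8690406-8867659, plus strand) was listed in replicate 1 only, with 2 peaks. The peak of 718 bp at chr4:8690534-8691251 held the start of Chd7-201, which begins 515 bp into the gene. The other peak, of 871 bp, lay at chr4:8691376-8692246, 11 bp downstream of the start of Chd7-202. A gap of 124 bp separated them, and together they spanned 1713 bp and lay within 1 kb of 4 of 8 TSS positions. Both were narrow for their list, at the 17.3 and 29.9 percentiles of promoter-proximal width. The peak of replicate 2 nearest to the Chd7 5′ end lay 154 kb away.

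Chd8 (ENSMUSG00000053754.14, chr14:52198151-52257780, minus strand), which encodes an ATPase known to restrain beta-catenin and is often mutated in autism, had its only peak at an internal promoter. The replicate 1 peak of 1090 bp at chr14:52243968-52245057 held the start of Chd8-213, a protein-coding transcript that begins 13.3 kb into the gene. Of its bases 77 were exon and 1013 were intron. The annotated 5′ end of Chd8 itself, 12.7 kb upstream of the peak, had no peak within 1 kb in either list, and of the 16 Chd8 TSS positions only that of Chd8-213 lay near a peak. Replicate 1 promoter peaks that all lay more than 1 kb from the gene's own 5′ end were found at 1 of 9 Chd genes (11.1%), beside 1.59% of protein-coding genes. Among genes with at least 1 promoter peak in replicate 1, the counts were 1 of 6 Chd genes and 349 of 4444 protein-coding genes. The part that the number of start sites plays in this was not tested. The 200 bases directly upstream of the Chd8-213 start are shown on the minus strand of mm10, because this is the internal start site inside the peak.
Chd8 chr14:52244510-52244709: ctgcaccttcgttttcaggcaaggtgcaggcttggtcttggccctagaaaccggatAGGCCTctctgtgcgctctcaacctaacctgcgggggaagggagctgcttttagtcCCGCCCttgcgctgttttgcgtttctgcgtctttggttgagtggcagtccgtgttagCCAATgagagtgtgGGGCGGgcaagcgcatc
The stretch is 58% G and C with 11 CpGs, and its 4 matches are to the GC box, CCAAT and part of the ZFX motif. In replicate 2 the peak nearest to Chd8 lay 0.839 kb beyond the 3′ end of the gene, at Supt16, the gene for a subunit of the histone chaperone FACT. That peak spanned chr14:52197196-52197312, within the 1474 bp peak that replicate 1 listed at Supt16.

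Chd9 (ENSMUSG00000056608.14, chr8:90828352-91054516, plus strand), the longest member, had no peak near any of its 14 TSS positions. The peaks nearest to its 5′ end lay 242 kb away in replicate 1 and 305 kb away in replicate 2. The nearest to any part of the gene was a replicate 1 peak of 647 bp at chr8:91070033-91070679, 15.5 kb beyond its 3′ end, at Rbl2, which encodes the retinoblastoma-related pocket protein p130.

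The 9 genes have 90 annotated TSS positions, and in each of the 6 genes with a promoter peak some positions lay near a peak and others did not. Of the 90 positions, 17 lay within 1 kb of a peak in replicate 1, and 12 of those also in replicate 2. The share near a peak in either list was 18.9%, beside 20% over the 93526 TSS positions of protein-coding genes, so the share per start site was near the background. Of the 17 positions, 16 were within 1 kb of the gene's annotated 5′ end, and the other was Chd8-213. Of the 73 positions with no peak, 15 were within 1 kb of the 5′ end, all of them in Chd2, Chd5, Chd8 or Chd9.

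**Figure D2:**
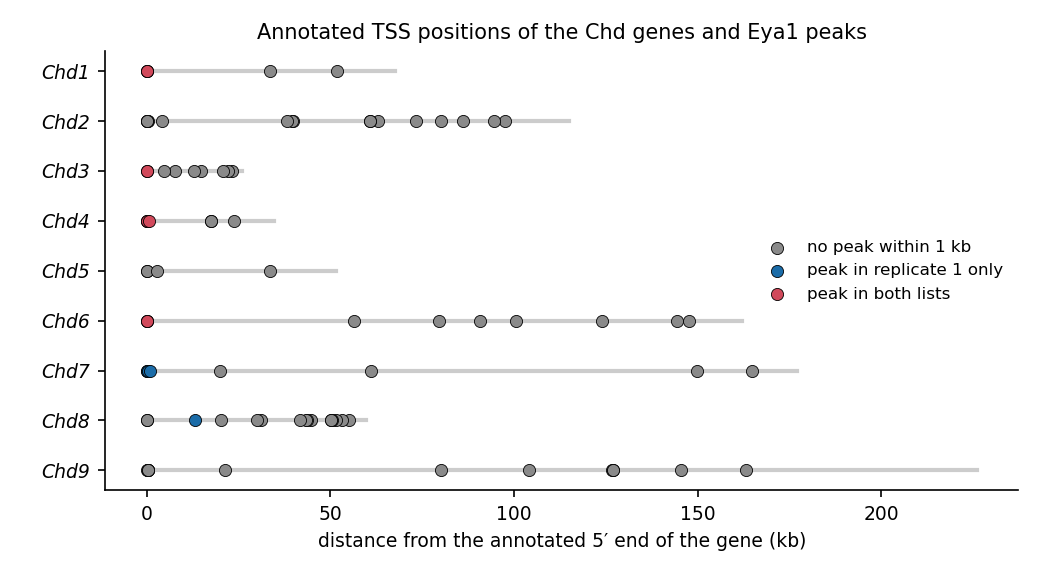
Each annotated TSS position of the 9 Chd genes (circles) by its distance from the gene's annotated 5′ end in kb, coloured by whether a peak lay within 1 kb, with the gene's extent as a grey line. The coloured positions sit at the 5′ end except for Chd8-213 at 13.3 kb.

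Replicate 2 peaks lay downstream of the 5′ end in each of the 4 genes that had one. Their midpoints were 200 bp downstream in Chd3, 263 bp in Chd1, 382 bp in Chd6 and 679 bp in Chd4. The median over these genes was 322.5 bp, beside 257 bp (quartiles 136 and 421 bp) over 2909 protein-coding genes with a replicate 2 peak near the 5′ end. A midpoint downstream of the 5′ end was found at 4 of 4 Chd genes (100%) and at 84.1% of those genes. Chd4 was thus the only member whose replicate 2 midpoint lay above the upper quartile.

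The Chd peaks spanned most of the range of widths in replicate 1 and the upper part of that in replicate 2. In replicate 1 the 8 peaks were 351 to 2715 bp wide with a median of 980.5 bp, beside a median of 1099 bp over 4041 promoter-proximal peaks. In replicate 2 the 4 peaks were 352 to 677 bp wide with a median of 410 bp, beside 199 bp over 3545. Their percentiles in replicate 2 were 80.6 for Chd1, 82.8 for Chd3, 87.7 for Chd6 and 96.9 for Chd4. Chd4, Chd3 and Chd6 were also the 3 widest in replicate 1, at the 97.8, 86.2 and 78.9 percentiles, with Chd3 and Chd6 in the reverse order. Chd1 went the other way, with its peak at the start sites at the 1.74 percentile in replicate 1. The width ratios were 4.7 for Chd3, 4.01 for Chd4 and 3.56 for Chd6, all below the median of 5.46 over all pairs and within its quartiles.

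**Figure D3:**
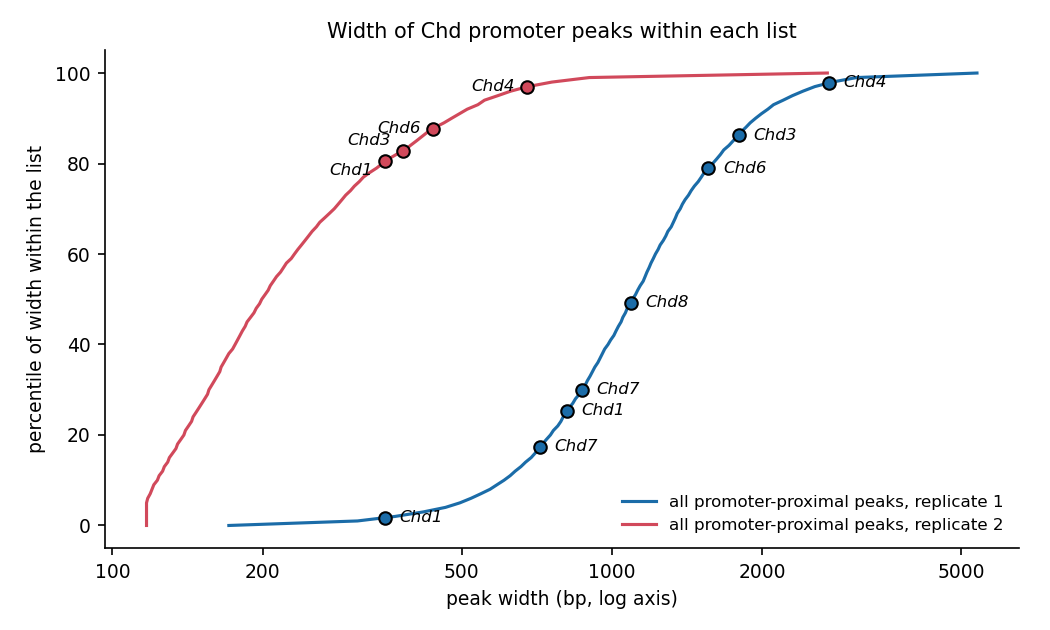
Width of each Chd promoter peak in bp (log axis) against its percentile among the promoter-proximal peaks of its own list. Lines show all promoter-proximal peaks of replicate 1 (blue) and replicate 2 (red). The 4 replicate 2 peaks lie above the 80th percentile, while the 8 replicate 1 peaks run from the 1.74 to the 97.8 percentile.

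The occupied start sites were rich in CpG. A promoter was called CpG-rich when 1 kb centred on the start had at least 50% GC and an observed over expected CpG ratio of at least 0.6. By this rule 7 of the 9 Chd 5′ ends were CpG-rich, beside 44.4% of protein-coding genes, and the exceptions were Chd2 (42.9% GC, ratio 0.35) and Chd9 (55.9% GC, ratio 0.47), both without a peak. The highest values were those of Chd1 (76.3% GC, ratio 1.06) and Chd7 (75.2% GC, ratio 1.14), both above the 99th percentile of all genes on each measure. All 6 Chd genes with a promoter peak had a CpG-rich 5′ end, as did 4304 of the 5158 protein-coding genes with one in either list. Single start sites are not separate sequences, since those close together share most of their 1 kb window. Of the 17 near a peak 16 were CpG-rich, and the median of the 17 was 69.5% GC with a ratio of 0.81. Those 16 lay within 1 kb of a gene's 5′ end, but only 15 of the 73 without a peak did, so position and CpG content were not told apart. Of the 73 without a peak 5 were CpG-rich, and the median of the 73 was 45.2% GC with a ratio of 0.31. The 5 exceptions were both Chd5 starts near its 5′ end, both Chd8 starts at its 5′ end (61.6% GC and ratio 0.73 for Chd8-212), and Chd9-213, an internal start 80.3 kb into Chd9 (76.9% GC, ratio 0.82). The start of Chd8-213, which had a peak, was not CpG-rich (56.9% GC, ratio 0.47). Its values thus fell below those of the unoccupied Chd8 5′ end.

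**Figure D4:**
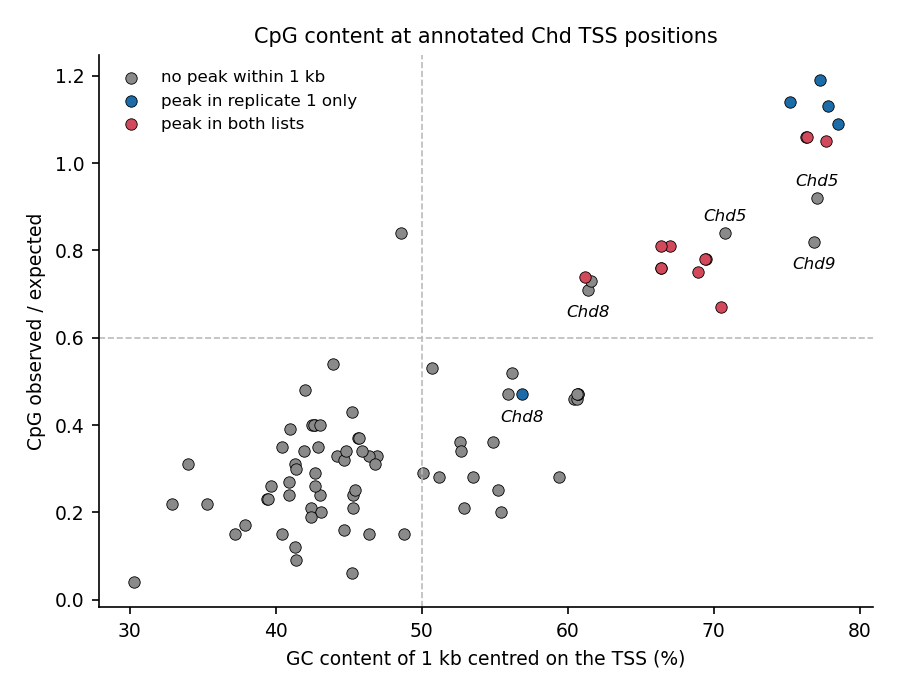
GC content (%) and observed over expected CpG ratio in 1 kb centred on each of the 90 Chd TSS positions, coloured by whether a peak lay within 1 kb, with dashed lines at 50% and 0.6. Of the 17 positions with a peak, 16 lie above both lines, and the other is Chd8. Names mark CpG-rich positions without a peak and the Chd8 position with one.

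Because both CpG content and the number of start sites vary with peak calls, the counts were set beside genes of like kind. Among protein-coding genes with 5 or more TSS positions 38.7% had a promoter peak in either list, beside 6 of 8 such Chd genes (75%). Among CpG-rich genes the share was 44.2%, beside 6 of 7 (85.7%), and among CpG-rich genes with 5 or more TSS positions it was 50.8%, beside 6 of 6 (100%). All Chd genes without a peak fell outside this last set. Chd2 and Chd9 are not CpG-rich at the 5′ end, and Chd5 has 4 TSS positions. The 100% thus follows from which genes the limits left out. For peaks in both lists the share of CpG-rich genes was 22.1%, beside 4 of 7 Chd genes (57.1%). With 5 or more TSS positions as well it was 26.7%, beside 4 of 6 (66.7%). The background thus rose from 23.5% to 50.8% with these features, and the part of CpG content in the Chd counts was not tested.

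Short motifs were searched in 300 bp centred on each Chd peak, on both strands. They were GGGCGG (the GC box), CCGGAAG (ETS factors), GCATGCGC (part of the NRF1 motif), AAGATGGCG (YY1), CCAAT (NFY), TATAAA (the TATA box), CACGTG (E box), TGACGTCA (CRE), TCAGGTTTC (Six2), AGGCCT (part of the ZFX motif) and RE1 with up to 2 mismatches. No motif of the panel contains another. The GC box was in 7 of 8 replicate 1 windows and 4 of 4 replicate 2 windows, beside 65.7% and 67.9% of all promoter-proximal peaks. The 1 window without it was that of the wide Chd4 peak in replicate 1, whose centre lies downstream of the stretch printed above. The Chd6 replicate 2 window held 5 GC boxes and the first Chd7 window held 4.

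Each other motif was in at most 2 of 8 replicate 1 windows and 1 of 4 replicate 2 windows. The shares given beside these counts are of all promoter-proximal peaks in replicates 1 and 2. CCGGAAG was in both Chd4 windows (1 of 8 and 1 of 4), beside 10.4% and 8.57%. CACGTG was in the replicate 2 window of Chd4 (0 of 8 and 1 of 4), beside 5.89% and 4.05%. CCAAT was in the Chd8 window (1 of 8 and 0 of 4), beside 16.3% and 13.8%. AGGCCT was in both Chd6 windows and that of Chd8 (2 of 8 and 1 of 4), beside 17.2% and 19.1%. Counts this small do not place the Chd windows above or below these shares. TCAGGTTTC, of interest because Six2 is a DNA-binding partner of Eya1, was in 0 of the 12 Chd windows. Its shares of promoter-proximal peaks were 0.272% and 0.17%. GCATGCGC, AAGATGGCG, TATAAA and TGACGTCA were also in 0 Chd windows, and each was in under 3% of the promoter-proximal peaks of either list. An RE1 match was in 1 of 8 replicate 1 windows, the downstream Chd7 peak, and in 1 of 4 replicate 2 windows, that of Chd6. The RE1 shares of promoter-proximal peaks were 5.05% and 7.78%, and peaks away from start sites were not counted in them. No match says only that these letters are not in the 300 bp searched.

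The partners of Chd3, Chd4 and Chd5 in NuRD were occupied throughout. The partner list was chosen with earlier results of these data known. All 12 partner genes examined had a promoter peak in both lists, beside 11.5% of protein-coding genes and 22.1% of CpG-rich protein-coding genes. Among CpG-rich genes with 5 or more TSS positions the share was 26.7%, though not all 12 partners have that many. The partners were the histone deacetylases Hdac1 and Hdac2, the histone-binding proteins Rbbp4 and Rbbp7, and the scaffolds Mta1, Mta2 and Mta3. The others were the methyl-CpG-binding domain proteins Mbd2 and Mbd3, and Gatad2a, Gatad2b and Cdk2ap1. Hdac1 peaks were 1675 bp wide in replicate 1 and 128 bp in replicate 2, Mta1 peaks 1366 and 587 bp, and Cdk2ap1 had the widest replicate 1 peak of the partners with 2524 bp. The median width was 1203 bp over 13 replicate 1 peaks and 247 bp over 15 replicate 2 peaks. The Chd4 peaks (2715 and 677 bp) were wider than those of each partner in both lists. Of the 12 partners 11 had a CpG-rich 5′ end, the feature shared with Chd3, Chd4 and Chd5, and its part in these counts was not tested. Among Chd3, Chd4, Chd5 and these partners, Chd5 alone had no peak.

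Among 23 other Snf2-family ATPases, 13 (56.5%) had a promoter peak in either list and 7 (30.4%) in both, beside 23.5% and 11.5% of all protein-coding genes. Of the 23, 20 had a CpG-rich 5′ end, and among CpG-rich protein-coding genes the shares were 44.2% and 22.1%. Among CpG-rich genes with 5 or more TSS positions they were 50.8% and 26.7%. The shares of the 23 lay near these last values, though not all 23 have that many TSS positions. The ATPases with a peak in both lists were Chd1l, Atrx, Ino80, Srcap, Ep400, Shprh and Smarcad1, which include the ATPases of the Ino80, Srcap and Tip60 complexes. Peaks in replicate 1 only were found at 6, among them Smarca2 and Smarca4, the alternative ATPases of the BAF complex. The 10 with no peak were Smarca1, Smarca5, Hells, Btaf1, Ercc6l, Rad54l, Rad54b, Hltf, Ttf2 and Smarcal1, and of these Smarca1 and Smarca5 are the ISWI ATPases. The shares of the Chd genes, 66.7% in either list and 44.4% in both, were higher than those of these ATPases by a margin of few genes, and the difference was not tested. Gene-body peaks were found at 0 of the 12 partners and 0 of the 23 ATPases, as at the Chd genes.

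**Figure D5:**
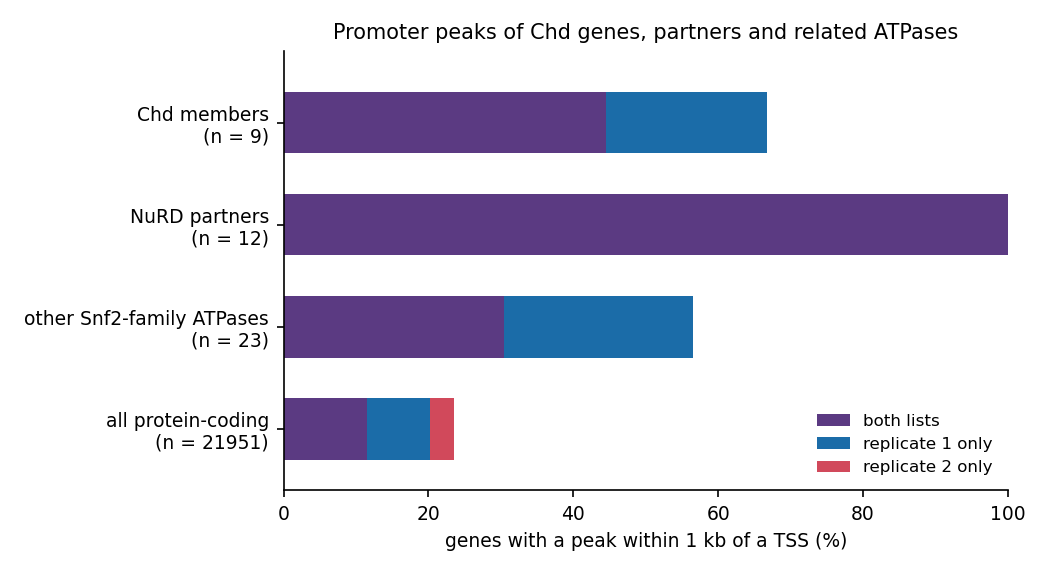
Share (%) of the 9 Chd genes, 12 NuRD partners, 23 other Snf2-family ATPases and 21951 protein-coding genes with a peak within 1 kb of a TSS in both lists (purple), replicate 1 only (blue) and replicate 2 only (red). The purple part is 100% for the partners, 44.4% for the Chd genes, 30.4% for the other ATPases and 11.5% for all protein-coding genes.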

How the data were processed

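Eya1 ChIP-seq was performed on E13.5 kidneys of tagged Eya1 knockin mice in 2 replicates, with input and IgG controls. The authors aligned reads to mm10 (Bowtie in the methods, HISAT2 in the submitters' processing notes) and called peaks with MACS against the controls. They deposited 1 list of intervals per replicate, with 3 columns that give chromosome, start and end, and no score or count. Their methods name various P value cutoffs, calls against input or IgG, and use of the peaks common to both. Which of these each list holds was not given in the sources used here. Groups and replicate numbers came from the sample titles. Whether the kidney pools of the replicates were independent was not stated.

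Coordinates were made 1-based, and 0 peaks ran past a chromosome end of the GRCm38 genome. Peaks were compared with the 132666 TSS positions of GENCODE M21, and all transcripts of a gene were used. Protein-coding genes were counted by identifier. Peaks were called overlapping from 1 shared bp. CpG content and motifs were read from GRCm38, and mitochondrial peaks were left out of the motif shares. Promoter sequence came from RefSeq. Every Chd gene was described, genes with a TSS within 1 kb of their promoter peaks were named, and the partner and ATPase lists were counted, naming genes occupied in both lists or neither. The members and lists were chosen with earlier results of these data known. No test was run, since the lists hold no counts and the genes are not replicates. Calculations used Python 3.11.15, numpy 2.4.6, pysam 0.24.0, samtools 1.23.1 and matplotlib 3.10.9, and were tested on simulated data. Alternatives covered the TSS distance, the start sites used, the overlap rule, peak width, merging of nearby peaks and leaving out each replicate.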

Additional observations from a re-analysis of the deposited data

How the results depend on the processing

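Of 83 alternatives to 9 values, 73 left the value within the limits set for a change (1.5 times for a count, 1 SD between replicates otherwise) and 10 moved it. The width limit was 403 bp, and the replicate 2 peaks were 352 to 677 bp wide, so no choice among them could pass it. The limit for the share of protein-coding genes, 3.9 points, came from the same 2 leave-one-out values that it judged. Some of the 73 could therefore not have moved, and that count is not a measure of stability. When a TSS had to lie inside the peak, 2 Chd genes rather than 4 were occupied in replicate 2 and 2 in both lists, 3 had a gene-body peak, and 19.2% of protein-coding genes had a promoter peak in either list. When only the 5′ end of each gene was used, Chd8 became the 1 gene with a gene-body peak, and 5 start sites rather than 17 lay near a peak, since 1 was counted per gene. With only the wider peaks of each list, the replicate 1 median width was 1676.5 bp and the share of protein-coding genes 14.6%. When 50% of both peaks had to be shared, 1 Chd gene (Chd1) was occupied in both lists. Leaving out each replicate gave shares of protein-coding genes from 14.7% (without replicate 1) to 20.2% (without replicate 2). Merging peaks within 100 bp of each other could not change a Chd value, since the separate peaks of Chd7 and Chd1 lay 124 and 197 bp apart. It therefore says nothing about the stability of the Chd values. The calls for Chd7 and Chd8 rest on replicate 1 alone. No paired analysis was possible because the controls have no peak list here and the values come from no test.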
